A study of Mus musculus with 29 samples.

Results

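The genes described here encode the extracellular matrix of the atria and the proteins that build, crosslink, cut or induce it. They are 45 listed genes of the 55292 gene names in the count tables, picked by their names as matrix and fibrosis genes. The choice was made with earlier results of these data known. Of the 45, 44 were found under the listed name, and Ctgf was found under its current name Ccn2. They fall into 9 roles: 5 fibrillar collagens, 8 basement membrane and filament collagens, 2 fibril-associated collagens, 7 glycoproteins and matricellular proteins, 3 crosslinking enzymes, 4 genes of elastic fibres, 6 proteoglycans, 5 proteases and inhibitors, and 5 growth factors or contractile actin.

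Polyadenylated RNA from atria of male mice was read in 29 libraries. Mice carrying a transgene labelled NaV1.5, the name of the main cardiac sodium channel, were set beside mice labelled Ctrl. The sources used here do not give the promoter that drives the transgene. In the diet experiment, treatments began at 5 weeks of age with a regular diet (4 Ctrl_RD and 4 NaV1.5_RD libraries) or a high-fat diet kept for 4 weeks (4 Ctrl_HFD and 5 NaV1.5_HFD libraries). In a further experiment, all mice carried the NaV1.5 transgene and were fed the high-fat diet for 4 weeks, again from 5 weeks of age. They were given vehicle (5 libraries) or nicotinamide riboside, a precursor of NAD (NR, 7 libraries). Both NR and vehicle groups therefore share transgene and diet. Whether the libraries of a group stem from different mice is not in the labels, and every p-value refers to the spread among libraries alone.

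The cardiac matrix is laid down mainly by fibroblasts. Fibrillar collagens give tensile strength, and enzymes of the lysyl oxidase family crosslink them. Transforming growth factor beta (TGF-beta) drives fibroblasts towards the myofibroblast state, in which they make collagens, fibronectin, periostin and smooth muscle actin, and fibrosis of the atria is a known substrate of atrial fibrillation.

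Counts assigned to genes totalled 13189995 to 33061018 per library, and the 45 genes together took 0.713 to 1.47% of them. Atrial cardiomyocyte markers summed to at least 17880 CPM (counts scaled to a common library size with TMM factors) in each library, against at most 892 CPM for ventricular markers. Ctrl_HFD replicate 4 is labelled batch 2 while the remaining 16 libraries of the diet experiment are batch 1, and the batch term of the fit leaves it no weight. Its Timp3 (61.3 CPM) and Fmod (104 CPM) lay inside the batch 1 ranges of 57.15 to 98.2 and 49.8 to 142.6 CPM. They lay outside those of the batch 2 NR libraries (357 to 502 and 215 to 337.5 CPM), which belong to the other experiment. The batch 3 libraries of that experiment had 427 to 500 CPM of Timp3 and 54.3 to 92.7 CPM of Fmod. Timp3 thus separates the experiments, and whether the batch label of Ctrl_HFD replicate 4 is right was not tested. Without the batch term, where that library counts fully, 0 matrix genes were called for genotype on high-fat diet and 0 for diet in control mice. All vehicle libraries are batch 3, NR replicates 1 to 5 are batch 2 and NR replicates 6 and 7 are batch 3, so the NR contrast rests on 2 NR libraries against 5 vehicle libraries. Of the 45 genes, 44 passed the low-count filter. The exception was Spp1 (osteopontin, a matricellular protein of activated macrophages and fibroblasts), which had at most 7 counts in any library. In a bulk sample, fewer cells of a type and less RNA per cell cannot be told apart.

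In Ctrl_RD atria the matrix transcripts were led by genes of small matrix proteins and not by collagens. Compared per kilobase of exon, Mgp (matrix Gla protein, an inhibitor of calcification) stood first at 966 ± 229 CPM per kilobase (SD, n = 4). Ccn2 (connective tissue growth factor, a target of TGF-beta and YAP) followed at 238 ± 91.3, then Sparc (a collagen-binding glycoprotein) at 222 ± 63.8, and the proteoglycans Dcn (decorin) at 199.9 ± 36.8 and Bgn (biglycan) at 182 ± 18.1. Mgp exceeded Ccn2 by more than the sum of their SDs, while Ccn2, Sparc, Dcn and Bgn were not separated from one another by that measure.

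The most abundant collagen per kilobase was Col3a1 (type III collagen) in the eighth place at 55.4 ± 14.6 CPM per kilobase. Col1a1 and Col1a2, the 2 chains of type I collagen, had nearly the same level per kilobase, 25.5 ± 7.41 and 25.1 ± 3.82. Before division by length they were at 168 ± 48.6 and 312 ± 47.4 CPM. The lengths count all annotated exon bases of a gene, 6563 for Col1a1 and 12426 for Col1a2, so the order depends on the annotation. Postn (periostin, a matricellular protein of activated fibroblasts) was at 8.29 ± 2.53 and Lox (lysyl oxidase) at 1.10 ± 0.20. Thbs1 (thrombospondin 1, an activator of latent TGF-beta) at 0.478 ± 0.163, Tnc (tenascin C) at 0.141 ± 0.0794, Col12a1 at 0.114 ± 0.0225 and Spp1 at 0.0218 ± 0.0168 closed the order. Of the 44 pairs of neighbours in this order, 10 were separated by more than the sum of their SDs, so most ranks next to each other are not resolved.

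**Figure D1:**
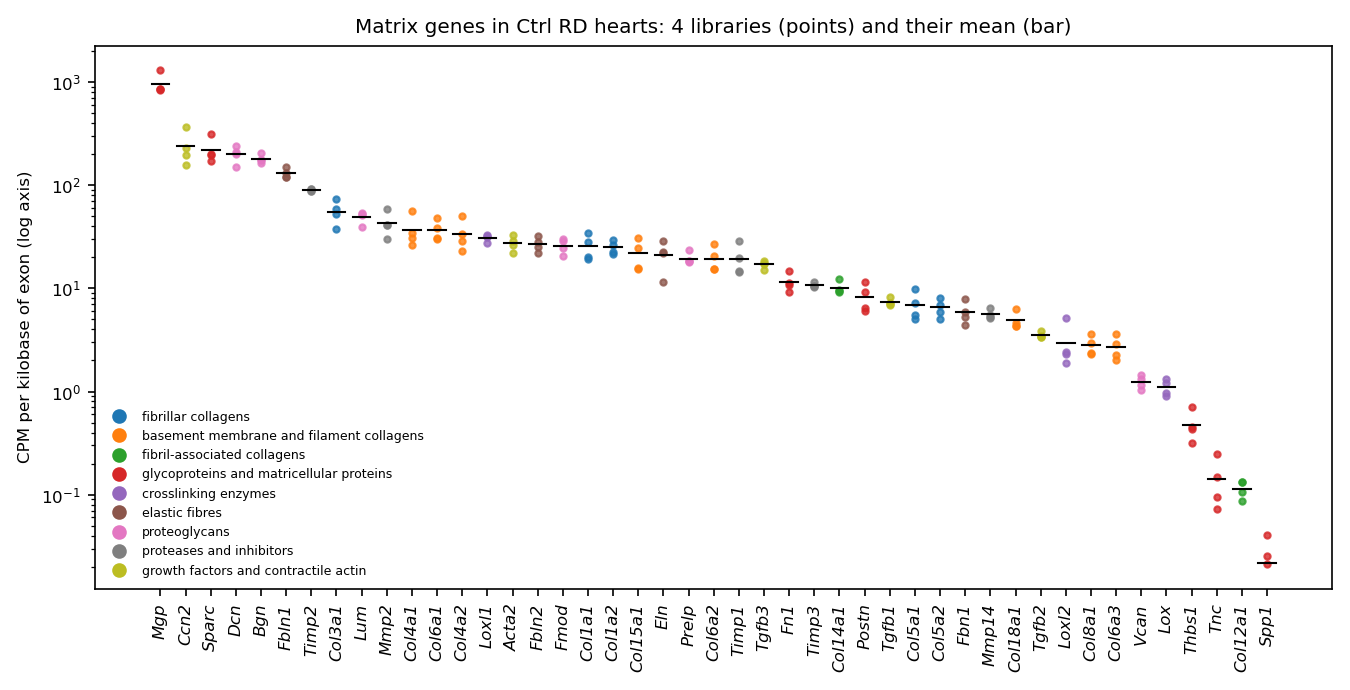
Level of each matrix gene in the 4 Ctrl_RD libraries, as CPM per kilobase of exon on a log axis, ordered by the mean (bar) and coloured by role. Points are libraries, and a library at 0 counts is not drawn; Mgp stands first at 966 and Spp1 last at 0.0218 CPM per kilobase.

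Promoter sequences of RefSeq (build GRCm38.p6, 250 bases before to 50 after each start) were matched for 29 of the 45 genes, in 35 windows. Those not matched were Tgfb3, Dcn, Thbs1, Col14a1, Col12a1, Col1a1, Loxl2, Col5a2, Loxl1, Mgp, Lum, Mmp2, Lox, Ccn2, Fn1 and Eln. Each motif was searched on both strands, and motifs may overlap. The SMAD motif CAGACA was present in 14 of 35 windows (40.0%) against 21% of all 32851 windows, and the SP1 motif GGGCGG in 20 (57.1%) against 35.7%. The other motifs lay near the share of all promoters: TEAD (GGAATG) in 5 windows (14.3% against 14.7%), CCAAT in 13 (37.1% against 37.4%), TATAAA in 6 (17.1% against 13.6%) and AP-1 (TGAGTCA) in 1 (2.86% against 5.2%). The SMAD palindrome GTCTAGAC was found in 0 of 35 windows and in 0.213% of all. Several genes have more than 1 window, so the windows are not independent, and a match is a description of letters, not a binding site.

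The promoters of Postn, Fbln1 and Prelp are shown because they had the smallest p of the genotype comparison on high-fat diet, the diet comparison in NaV1.5 mice and the NR comparison described next. Each run gives the 250 bases before the start, 5′ to 3′ on the strand of the gene, with any of the motifs above in capitals. Postn is chr3:54360857-54361106 (plus strand), Fbln1 is chr15:85205699-85205948 (plus strand) and Prelp is chr1:133921402-133921651 (minus strand).
Postn: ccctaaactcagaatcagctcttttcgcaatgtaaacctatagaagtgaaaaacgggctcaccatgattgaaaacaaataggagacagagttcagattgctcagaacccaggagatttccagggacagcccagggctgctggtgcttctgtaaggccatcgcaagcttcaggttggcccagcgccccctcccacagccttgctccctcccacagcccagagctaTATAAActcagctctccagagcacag
Fbln1: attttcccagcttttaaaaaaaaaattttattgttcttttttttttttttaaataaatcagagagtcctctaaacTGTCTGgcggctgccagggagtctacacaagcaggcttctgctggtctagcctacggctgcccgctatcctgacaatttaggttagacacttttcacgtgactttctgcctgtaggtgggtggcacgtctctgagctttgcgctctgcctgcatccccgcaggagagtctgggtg
Prelp: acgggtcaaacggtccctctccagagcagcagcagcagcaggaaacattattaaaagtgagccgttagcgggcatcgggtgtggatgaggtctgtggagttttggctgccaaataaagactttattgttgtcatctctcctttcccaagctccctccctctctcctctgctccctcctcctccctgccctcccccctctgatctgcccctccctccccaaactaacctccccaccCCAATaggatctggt
In Postn the capitals are a TATAAA that begins 26 bases before the start. In Fbln1 they are TGTCTG, the SMAD motif on the other strand, beginning 175 bases before the start. In Prelp they are a CCAAT that begins 15 bases before the start.

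Libraries of the same group differed in many matrix genes at a time. In NaV1.5_RD replicate 4, 34 of 44 genes had their lowest value of the group, against 36.3% of all genes tested, and 7 had their highest. The 34 hold every collagen of the list, Fn1 (fibronectin), Postn, Acta2 (smooth muscle actin) and the 3 crosslinking enzymes. The 7 were Mgp, Dcn, Lum (lumican), Fmod (fibromodulin), Timp1, Timp2 and Timp3. NaV1.5_RD replicate 1 held the highest value of 29 genes (22.6% of all genes) and Ctrl_RD replicate 3 of 33 (26.2% of all genes). In the latter, Mgp, Lox, Dcn, Lum and Fmod were at their lowest.

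Libraries low in many of these genes occurred in other groups, with partly different genes on the high side. Ctrl_HFD replicate 1 had the lowest value of 27 genes (29.6% of all genes), most collagens of the list among them, and the highest of Col8a1, Postn, Mgp, Dcn, Fmod and Timp1. NaV1.5_HFD replicate 1 was lowest in 25 genes (18.9% of all genes) and highest in 0. Vehicle replicate 3 was lowest in 28 (21.2% of all genes) and highest in Dcn, Fmod, Timp3 and Ccn2. Acta2 shows the size of this spread, at 94.8, 105, 86.6 and 32.4 CPM in the NaV1.5_RD libraries and from 20.3 to 179.8 CPM among the vehicle libraries. Whether these differences come from the mice, the dissected pieces or the libraries was not tested.

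**Figure D2:**
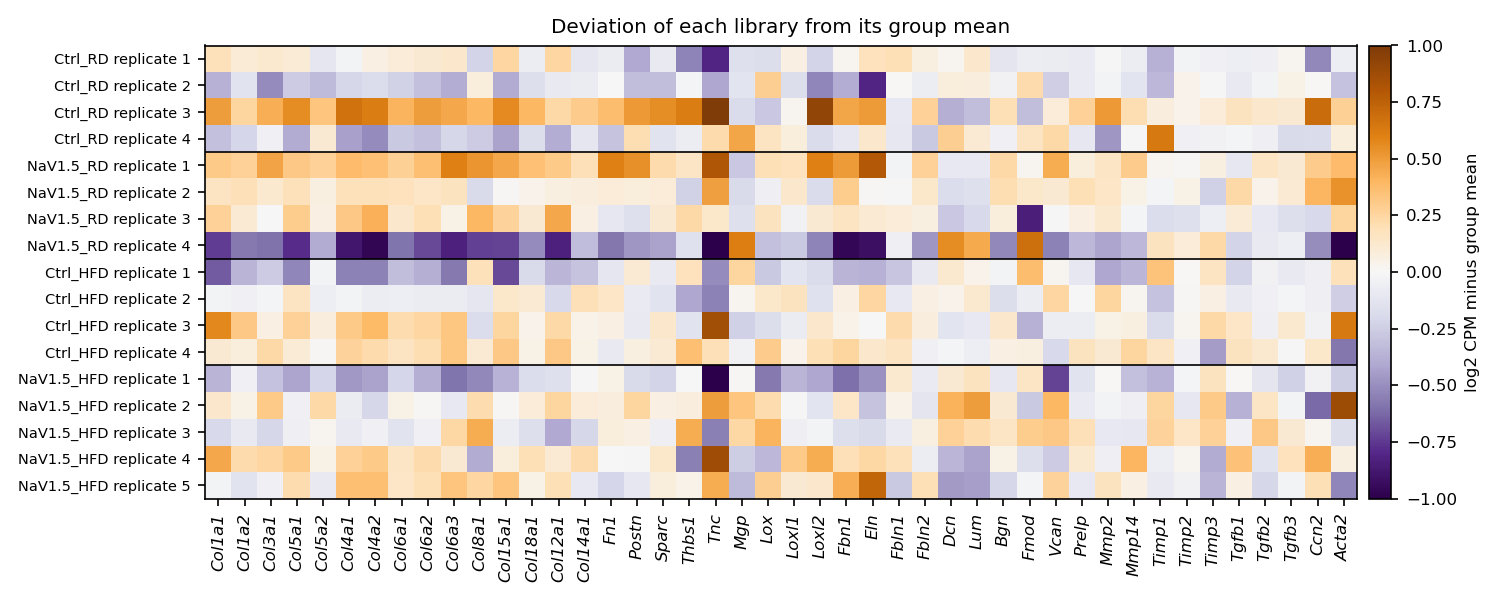
Deviation of each library of the diet experiment from the mean log2 CPM of its group, for 44 matrix genes in order of role (colour, log2 units). NaV1.5_RD replicate 4 is low in 34 genes, every collagen among them, and high in Mgp, Dcn, Lum and Fmod, while Ctrl_RD replicate 3 is highest of its group in 33.

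The first comparison asked how matrix genes of NaV1.5 atria differ from those of control atria on regular diet. None of the 44 tested genes passed (0 with edgeR, DESeq2 or limma-voom at an adjusted p of 0.05, against 0.0124% of all genes by the edgeR test). At an unadjusted p below 0.05, 0 genes were higher (3.53% of all genes) and 1 was lower (2.59%). The log2 difference was above 0 for 38 of the 44 genes, with a median of 0.12, against 51.4% and a median of 0.01 over 16168 genes. That median was 0.03 without NaV1.5_RD replicate 1 and 0.25 without NaV1.5_RD replicate 4, the libraries that stand apart.

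The lower gene was Timp3, an inhibitor of metalloproteinases held in the matrix. It was at 84.8, 86.8, 93.2 and 85.2 CPM in Ctrl_RD and at 70.7, 57.15, 64.7 and 79.3 CPM in NaV1.5_RD. The groups did not overlap, as in 1.7% of all genes in this direction, and the log2 difference was -0.36 (SE 0.14, edgeR adjusted p = 0.769). Of its exon bases, 21.3% are shared with the synapsin gene Syn3, and strand was not used in counting. Next in rank were Loxl1 (a lysyl oxidase-like enzyme) at 0.24 (SE 0.12), Timp1 at 0.40 (SE 0.20) and Ccn2 at 0.46 (SE 0.26), with edgeR adjusted p values of 0.831, 0.834 and 0.855. Ccn2 moved to 0.30 without Ctrl_RD replicate 1 and to 0.74 without Ctrl_RD replicate 3. Loxl1 ran from 0.17 without NaV1.5_RD replicate 1 to 0.32 without NaV1.5_RD replicate 4. Timp1 ran from 0.26 without Ctrl_RD replicate 1 to 0.66 without Ctrl_RD replicate 4.

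The collagen values overlapped throughout on regular diet. Col1a1 was at 185, 126, 229 and 132 CPM in Ctrl_RD and at 246, 222, 239 and 119 CPM in NaV1.5_RD (log2 difference 0.30, SE 0.29). Col3a1 was at 577, 370.4, 716 and 513 CPM against 776, 608, 557 and 369 CPM (0.09, SE 0.21), and its difference was -0.09 without NaV1.5_RD replicate 1. In both genes NaV1.5_RD replicate 4 was the lowest of the 8 libraries. Timp1, a secreted inhibitor of metalloproteinases, was at 12.8, 13.1, 17.5 and 25.8 CPM against 23.1, 22.4, 20.04 and 25.5 CPM, so only Ctrl_RD replicate 4 reached the NaV1.5 range.

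On high-fat diet the largest median differences by role lay in matricellular and crosslinking genes. No gene passed with edgeR (0 of 44, against 0.0866% of all genes). DESeq2 called 1, against 0.557% of all genes, and limma-voom 2, against 0.767%. The largest single difference was that of Tnc (0.98), a gene of low counts, and Eln of the elastic fibres was at 0.73. Neither reached an unadjusted p below 0.05. At an unadjusted p below 0.05 there were 6 of 44 higher in NaV1.5_HFD (4.24% of all genes) and 0 lower (3.8%). They were Postn, Lox, Thbs1, Col5a2 (a chain of type V collagen, which starts collagen fibrils), Vcan (versican, a large proteoglycan) and Sparc. The difference was above 0 for 38 of 44 genes with a median of 0.21, against 51.2% and 0.01 over all genes. The median was 0.12 without Ctrl_HFD replicate 1 and 0.34 without Ctrl_HFD replicate 3. By role it was 0.62 over 6 glycoproteins and matricellular proteins, 0.61 over 3 crosslinking enzymes, 0.21 over 5 fibrillar collagens, 0.17 over 8 basement membrane and filament collagens and 0.01 over 5 proteases and inhibitors.

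Postn had the smallest p. It was at 63.9, 55.8, 55.7 and 61.9 CPM in Ctrl_HFD and at 92.8, 126.7, 110.2, 105 and 98.6 CPM in NaV1.5_HFD, so each NaV1.5_HFD library lay above each control library. The log2 difference was 0.87 (SE 0.22, edgeR adjusted p = 0.2155), with adjusted p values of 0.00814 by DESeq2 and 0.0371 by limma-voom. With any 1 library left out it stayed between 0.80 and 0.94 and did not pass with edgeR. The regular-diet libraries spanned both ranges, at 52.8, 56, 99.6 and 80.3 CPM in Ctrl_RD and 110.5, 80.4, 68.5 and 54.8 CPM in NaV1.5_RD.

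Col5a2 was the other gene whose groups did not overlap, which held for 2 of 44 matrix genes and 1.71% of all genes. It was at 52.6, 51.6, 56.5 and 54.2 CPM in Ctrl_HFD and at 63.8, 86.7, 75.1, 76.7 and 69.6 CPM in NaV1.5_HFD (log2 difference 0.47, SE 0.14, edgeR adjusted p = 0.32). Lox was at 3.62, 4.79, 3.89 and 5.37 CPM against 4.49, 7.72, 8.86, 5.27 and 8.12 CPM (0.74, SE 0.22, edgeR adjusted p = 0.279). NaV1.5_HFD replicates 1 and 4 lay within the control range. Thbs1 was at 2.82, 1.88, 2.27 and 3.21 CPM against 4.14, 4.37, 5.64, 2.84 and 4.28 CPM (0.87, SE 0.25, edgeR adjusted p = 0.283), and only NaV1.5_HFD replicate 4 reached the controls. By limma-voom the adjusted p of Thbs1 was 0.0326.

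Type I and III collagens did not separate the genotypes on this diet. Col1a1 was at 72.3, 112, 169.5 and 124 CPM in Ctrl_HFD and at 104, 146, 116, 184 and 131 CPM in NaV1.5_HFD (log2 difference 0.21, SE 0.30, and -0.05 without Ctrl_HFD replicate 1). Col3a1 was at 403, 477, 504 and 568 CPM against 466, 709, 496, 682 and 558 CPM (0.34, SE 0.22). Acta2 was at 89, 66.1, 121.6 and 52.4 CPM against 60.8, 132.9, 64.4, 75.8 and 50.2 CPM (-0.26, SE 0.36). The TGF-beta ligands were at 0.17 (Tgfb1, SE 0.13), 0.11 (Tgfb2, SE 0.11) and -0.09 (Tgfb3, SE 0.10).

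Markers of other cells also differed between these groups. Of 6 erythroid markers tested, 5 had an unadjusted p below 0.05, with a median log2 difference of 1.60, and their summed level was 612 to 850 CPM in Ctrl_HFD and 932 to 3128 CPM in NaV1.5_HFD. Of 10 myofibroblast markers, 3 did (Comp, Thbs4 and Mfap4; median 0.53), and their sums did not overlap, at 229 to 288 CPM in Ctrl_HFD and 299 to 389 CPM in NaV1.5_HFD. Of 15 macrophage markers, 4 did (Fcgr1, C1qb, Lyz2 and Itgam; median 0.21, sums of 947 to 1243 CPM against 1075 to 1357 CPM). Of 9 cell division genes, 7 had an unadjusted p below 0.05 (median 1.05, sums of 12.6 to 22.6 CPM against 19.1 to 42.2 CPM). Of 12 endothelial markers, 5 did (median 0.20, sums of 1483 to 1625 CPM against 1515 to 2149 CPM), and of 15 fibroblast markers, 1 (median -0.03, sums of 5333 to 6928 CPM against 4861 to 6257 CPM). No marker of these lists was called, the erythroid marker Ahsp was not found by name, and no tested erythroid, endothelial, macrophage, fibroblast or myofibroblast marker was at 0. White adipocyte markers lay below 0 in 7 of 9 (median -0.71), while Fabp4 was at 0.64 (SE 0.14). Several lists leaned above 0 for genotype on regular diet too. There 9 of 10 myofibroblast (median 0.26), 13 of 15 fibroblast (0.12) and 12 of 15 macrophage markers (0.17) lay above 0. So did 9 of 9 cell division genes (0.51) and 6 of 6 erythroid markers (0.39), but only 6 of 12 endothelial markers. The part of these cells in the matrix differences was not tested.

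**Figure D3:**
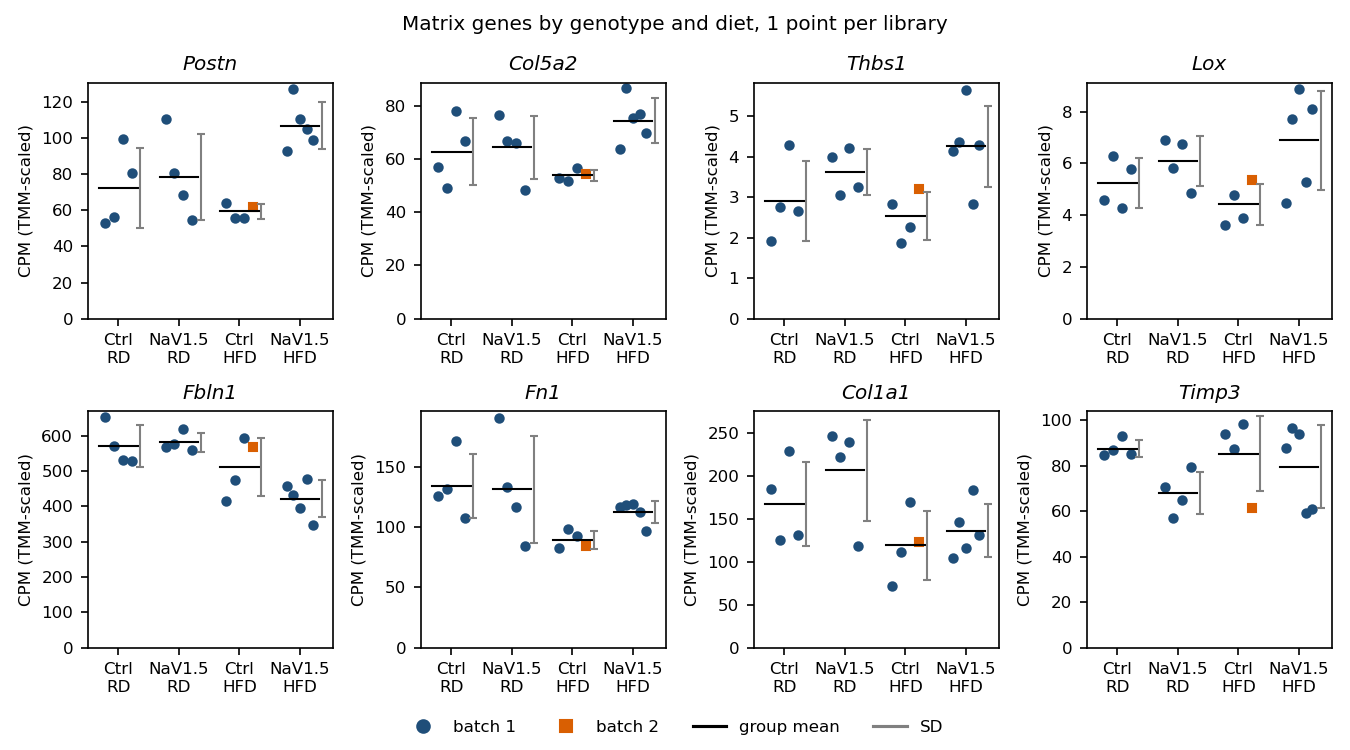
CPM of 8 matrix genes in the diet experiment, 1 point per library, with the group mean (black bar), the SD (grey) and the batch (colour and shape). In Postn and Col5a2 all 5 NaV1.5_HFD libraries lie above the 4 Ctrl_HFD libraries, and in Fbln1 they lie below the 4 NaV1.5_RD libraries.

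The third comparison set high-fat against regular diet within NaV1.5 mice. Fbln1 (fibulin 1, a glycoprotein of elastic fibres and basement membranes; GRCm38 chr15:85205949-85286535, plus strand) fell and was the only matrix gene of 44 that passed, against 1.13% of all genes. It was at 568, 575.5, 618 and 560.1 CPM in NaV1.5_RD and at 457, 432, 396, 476.5 and 348 CPM in NaV1.5_HFD. The ranges did not overlap, which held for 1 of 44 matrix genes in the lower direction and 3.11% of all genes. The log2 difference was -0.47 (SE 0.11, edgeR adjusted p = 0.0464).

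The call for Fbln1 lies at the threshold while its size is steady. With 1 library left out the log2 difference ran from -0.51 to -0.40, and the call was lost without NaV1.5_RD replicate 1, 2 or 3 or without NaV1.5_HFD replicate 1, 2, 3 or 5 (adjusted p from 0.05 to 0.157). In batch 1 libraries alone it was -0.46 (adjusted p = 0.0503), and with offsets for GC content and length -0.35 (adjusted p = 0.126). Control mice gave -0.21 (SE 0.13, edgeR adjusted p = 0.652), with 653, 569.9, 529.7 and 528 CPM in Ctrl_RD and 415, 473, 592.5 and 566 CPM in Ctrl_HFD. The difference between the genotypes' diet effects was -0.25 (SE 0.17, edgeR adjusted p = 0.9999).

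Among the other genes, 11 of 44 in all were lower at an unadjusted p below 0.05 (10.6% of all genes) and 1 was higher (8.38%). Below 0 lay 31 of 44 genes, with a median of -0.11 against -0.01 over all genes, and the median ran from -0.27 without NaV1.5_RD replicate 4 to -0.03 without NaV1.5_RD replicate 1. The lower genes included Col6a1 at -0.42 (SE 0.17), Col6a2 at -0.52 (SE 0.21) and Col18a1 at -0.35 (SE 0.15), chains of microfibrillar and basement membrane collagens, with edgeR adjusted p values of 0.187, 0.2 and 0.208. Without NaV1.5_RD replicate 1, Col18a1 was at -0.22. Col1a1 was at -0.61 (SE 0.27) and Col1a2 at -0.34 (SE 0.16). Postn was the higher gene, at 0.43 (SE 0.20, edgeR adjusted p = 0.246).

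NaV1.5_RD replicate 4 decides most of these calls. Without it 7 of 44 genes passed, all lower on high-fat diet, while 6.92% of all genes passed (1138, against 182 with it): Col1a2, Col6a1, Col6a2, Col18a1, Fbln1, Fbln2 (fibulin 2) and Bgn. With all libraries, limma-voom with weights on libraries called these 7 and Loxl1 and Mmp14 (a membrane-bound collagenase), with 12.1% of all genes. In that library Col6a1 was at 119 CPM, against 216, 201 and 195 CPM in the other NaV1.5_RD libraries and 117, 141, 124, 151 and 151 CPM in NaV1.5_HFD. Of 11 smooth muscle and pericyte markers, Smtn and Des were lower at an unadjusted p below 0.05 and the pericyte marker Rgs5 was higher (0.32, SE 0.11), and the summed level was 1915 to 2521 CPM in NaV1.5_RD and 1612 to 2145 CPM in NaV1.5_HFD. Of 9 white adipocyte markers, 7 were lower at that p, of which Pnpla2 passed, and Fabp4 was higher (0.35, SE 0.12); the adipocyte markers Adipoq, Plin1, Cidec, Lep, Retn, Cfd and Car3 had 0 counts in some libraries of the series. Of 15 fibroblast markers, 5 were lower at that p and Ddr2 was higher (0.22, SE 0.08), and their sums did not overlap, at 6565 to 7288 CPM in NaV1.5_RD and 4861 to 6257 CPM in NaV1.5_HFD. The summed white adipocyte level was 847 to 1207 CPM against 922 to 1091 CPM. The part of these cells in the matrix differences, Fbln1 included, was not tested.

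In control mice the diet comparison gave 0 calls with edgeR, DESeq2 and limma-voom (edgeR called 0% of all genes). At an unadjusted p below 0.05 there were 6 of 44 lower on high-fat diet (4.76% of all genes) and 0 higher (3.73%). Below 0 lay 35 of 44 genes, with a median of -0.30 against -0.00 over all genes, and -0.12 without Ctrl_RD replicate 3, the library highest in most collagens. Every collagen of the list, all 3 crosslinking enzymes and all 4 genes of elastic fibres lay below 0, though not under every alternative (Col12a1 lay above without the batch term and Loxl1 with GC content and length offsets). Of 6 proteoglycans, 4 lay above 0, of which Prelp lay below it without scaling factors.

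Fn1 (fibronectin, the scaffold on which collagen fibrils assemble; GRCm38 chr1:71585520-71653200, minus strand) led these genes. It was at 126, 132, 172 and 108 CPM in Ctrl_RD and at 82.8, 98.7, 92.8 and 84.1 CPM in Ctrl_HFD. The groups did not overlap, and the log2 difference was -0.56 (SE 0.20, edgeR adjusted p = 0.524). Fbln2 at -0.36 (SE 0.14), Bgn at -0.37 (SE 0.15) and Col18a1 at -0.41 (SE 0.17) followed, each with an edgeR adjusted p of 0.532. For these 4 genes all Ctrl_HFD libraries lay below all Ctrl_RD libraries, against 2.88% of all genes. The batch 2 library is among them and carries no weight in the fit. Without Ctrl_RD replicate 3, Col18a1 was at -0.26. Of 12 endothelial markers, 5 were lower at an unadjusted p below 0.05, with sums of 1620 to 2105 CPM in Ctrl_RD and 1483 to 1625 CPM in Ctrl_HFD. Other lists moved as well. Below 0 lay 9 of 9 white adipocyte markers (median -1.41, 2 at that p) and 9 of 10 myofibroblast markers (median -0.33, 1 at that p). Epicardial and mesothelial markers lay above 0 in 11 of 11 (median 0.42, 0 at that p), and fibroblast markers had a median of -0.02. The part of all these cells was not tested. In NaV1.5 mice, which share no library with this comparison, Fn1 was at 191, 134, 117 and 84.1 CPM on regular diet and 117, 119, 119.5, 112.5 and 97.2 CPM on high-fat diet (-0.23, SE 0.17).

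The interaction asked whether diet acts differently in the 2 genotypes. No matrix gene passed (0 with edgeR, DESeq2 and limma-voom, against 0% of all genes by the edgeR test). At an unadjusted p below 0.05, 2 of 44 were higher (1.16% of all genes) and 0 were lower (1.1%). They were Postn at 0.74 (SE 0.30) and Col5a2 at 0.43 (SE 0.20), and next in rank were Lox at 0.51 (SE 0.30) and Thbs1 at 0.53 (SE 0.35), all with an edgeR adjusted p of 0.9999. Postn moved from 0.55 without Ctrl_RD replicate 3 to 0.95 without NaV1.5_RD replicate 1, and Thbs1 was 0.29 without Ctrl_RD replicate 3.

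**Figure D4:**
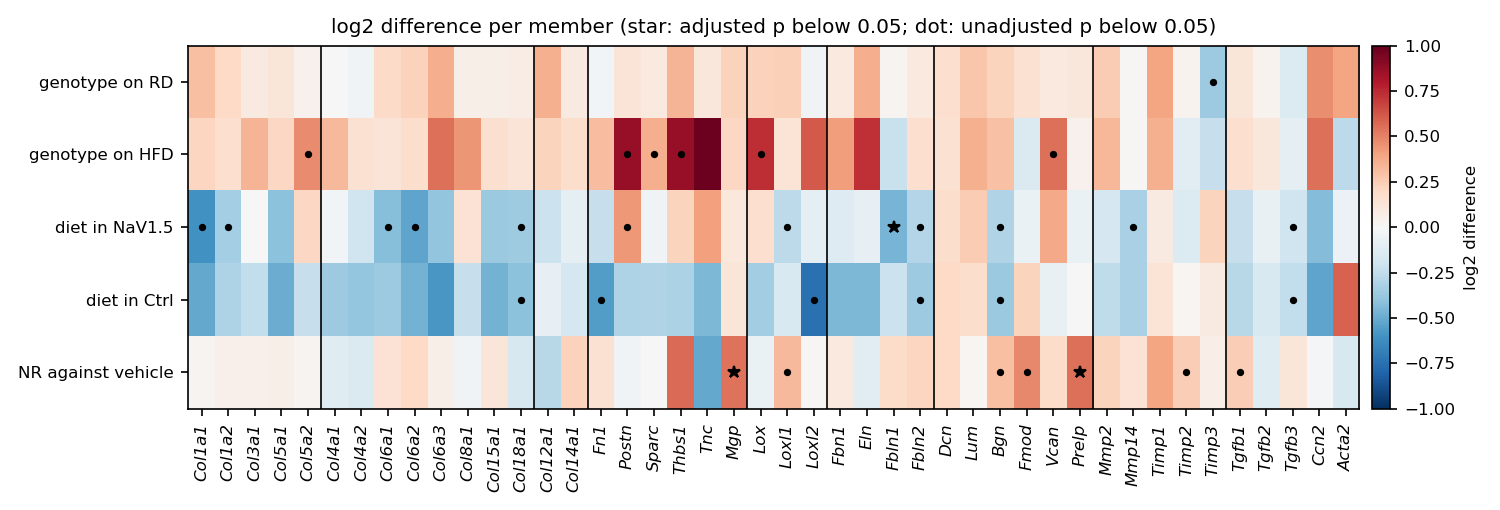
Log2 difference of the 44 tested matrix genes, grouped by role (vertical lines), in 5 comparisons (rows; first group minus second, NaV1.5 minus Ctrl, high-fat minus regular diet, NR minus vehicle). Stars mark an edgeR adjusted p below 0.05 (Fbln1, Mgp and Prelp) and dots an unadjusted p below 0.05; colours stop at 1 and -1.

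Under nicotinamide riboside 2 of 44 matrix genes rose, against 0.425% of all genes called. Prelp (a leucine-rich proteoglycan that anchors basement membranes to collagen; GRCm38 chr1:133910304-133921414, minus strand) was at 62.6, 69.7, 60, 55.5 and 57.8 CPM in vehicle and at 84.1 and 92.3 CPM in the NR libraries of the same batch. Its log2 difference was 0.55 (SE 0.11, edgeR adjusted p = 0.0355). Mgp (chr6:136872435-136875823, minus strand) was at 481, 621, 611, 591 and 546 CPM against 816 and 823 CPM (0.54, SE 0.11, edgeR adjusted p = 0.0415). Both NR libraries lay above all 5 vehicle libraries in both genes.

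The 5 NR libraries of batch 2 were higher as well, at 114, 91.2, 101.7, 92.3 and 85.4 CPM for Prelp and 1159, 1270, 1155, 1003 and 1290 CPM for Mgp. No vehicle library belongs to batch 2, so there batch and NR cannot be told apart. In the diet experiment NaV1.5_HFD atria, which share genotype and diet with vehicle, had 65.9 to 83.1 CPM of Prelp and 1134 to 1791 CPM of Mgp. The Prelp range lay between vehicle and the NR libraries apart from an overlap with the highest vehicle library, and the Mgp range lay above the NR libraries of batch 3.

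Both calls rest on few libraries. Leaving out NR replicate 2, 3, 6 or 7 or vehicle replicate 1, 3, 4 or 5 left 0 calls, and leaving out NR replicate 1 left Prelp. The sizes stayed between 0.47 and 0.63 for Prelp and between 0.48 and 0.58 for Mgp. In batch 3 libraries alone the adjusted p was 0.06215 for Prelp and 0.114 for Mgp.

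At an unadjusted p below 0.05 there were 7 of 44 genes higher (4.3% of all genes) and 0 lower (6.8%). Beside Prelp and Mgp they were Fmod (fibromodulin) at 0.48 (SE 0.15, edgeR adjusted p = 0.238), Timp2 at 0.25 (SE 0.10, adjusted p = 0.373), Tgfb1 at 0.25 (SE 0.10), Loxl1 at 0.32 (SE 0.13) and Bgn at 0.30 (SE 0.13). Fmod was 0.25 without NR replicate 7 and 0.69 without NR replicate 6. Timp2 was 0.14 without NR replicate 7. For 6 of 44 genes both NR libraries of batch 3 lay above all vehicle libraries, against 4.87% of all genes. All 6 proteoglycans and all 5 proteases and inhibitors lay above 0, though not under every alternative (Lum lay below with all 29 libraries in 1 fit, and Vcan, Mmp2, Mmp14 and Timp3 without the batch term), and the median over 44 genes was 0.08, against -0.01 over all genes. That median was 0.02 without vehicle replicate 3 and 0.18 without vehicle replicate 4.

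Collagens and periostin did not follow. Col1a1 was at 165, 208, 106, 258 and 209 CPM in vehicle and at 169 and 212 CPM in the NR libraries of batch 3 (log2 difference 0.03, SE 0.30). Col3a1 was at 754.5, 894, 423.5, 1124 and 933.5 CPM against 797 and 890 CPM (0.05, SE 0.28). Postn was at 85.8, 212, 100.2, 239.7 and 155 CPM against 161 and 146 CPM (-0.03, SE 0.54). The vehicle libraries alone span more than a 2-fold range in each of these genes, so this comparison has little precision for them.

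Acta2 and Tgfb2 also varied among the vehicle libraries, while Tgfb1 (14.9 to 18 CPM) and Tgfb3 (37.3 to 46.4 CPM) varied less. Tgfb2 was at 23.6, 40.1, 20.9, 33.2 and 22.7 CPM in vehicle and 27.6 and 23.7 CPM under NR (-0.12, SE 0.22). Acta2 was at 91.4, 179.8, 20.3, 144 and 59.1 CPM against 129.5 and 47 CPM (-0.16, SE 0.84). Markers of macrophages differed beside the matrix genes: 7 of 15 were higher at an unadjusted p below 0.05 with a median of 0.30, and their sums were 782 to 965 CPM in vehicle and 1023 to 1473 CPM over the NR libraries of both batches. Of 15 fibroblast markers, 15 lay above 0 (median 0.21), 2 of them at that p. Their sums were 4002 to 4870 CPM in vehicle (median 4220). Over the NR libraries of both batches they were 2849 to 5418 CPM (median 3106), so that median lay below every vehicle library. The log2 differences rest on the batch 3 libraries, while the NR sums add those of batch 2, where batch and NR cannot be told apart. White adipocyte markers lay above 0 in 7 of 9 (median 2.45), and epicardial and mesothelial markers in 11 of 11 (median 0.33). Cell division genes lay below 0 in 10 of 10 (median -0.77). No marker of the adipocyte, epicardial or cell division lists reached that p. Of 6 ventricular markers, 4 lay above 0, and Myl2 was higher at that p (5.22, SE 1.70). No macrophage or fibroblast marker was at 0 in any library. The part of all these cells in the matrix differences was not tested.

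**Figure D5:**
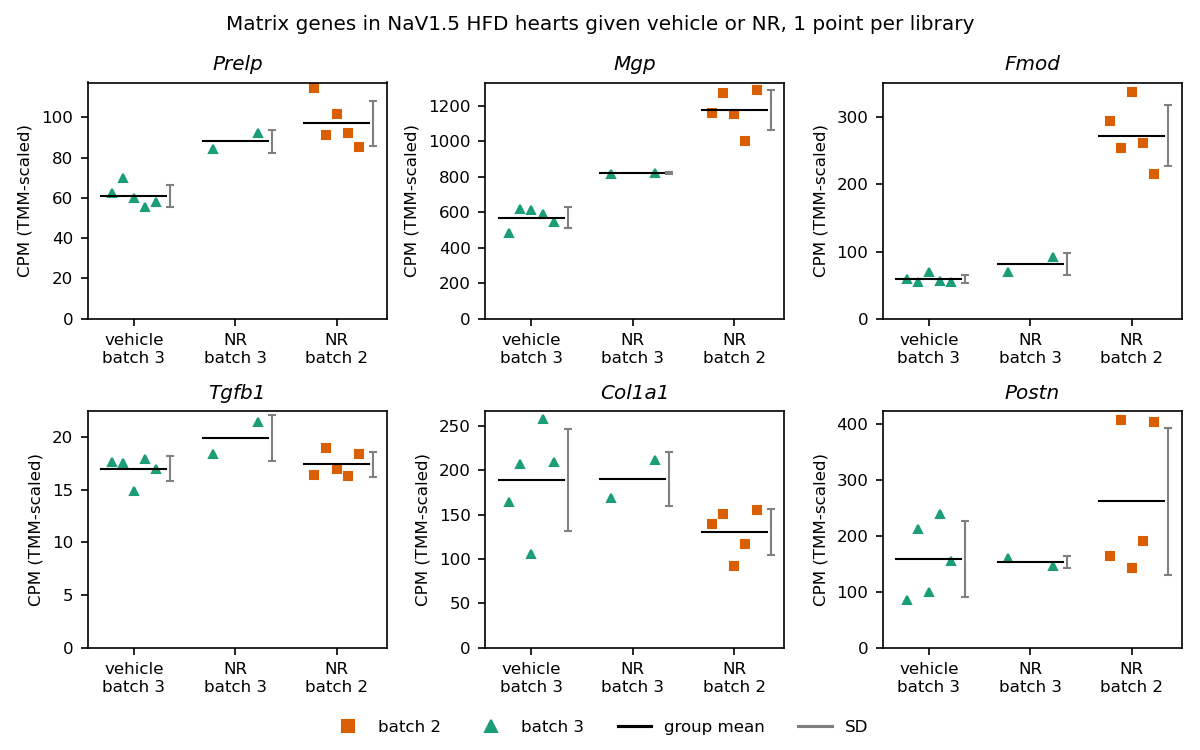
CPM of 6 matrix genes in atria of NaV1.5 mice fed the high-fat diet and given vehicle (5 libraries, batch 3) or NR (2 libraries of batch 3 and 5 of batch 2), with the mean (black) and SD (grey). In Prelp and Mgp the NR libraries of both batches lie above the vehicle libraries, while in Col1a1 and Postn the NR libraries of batch 3 lie inside the vehicle range.

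The 2 experiments differ in level for many of these genes. Between NaV1.5_HFD and vehicle libraries, which carry the same transgene and diet, 8 of 44 matrix genes did not overlap and were higher in vehicle (28.3% of all genes) and 7 were lower (25.5%), so the matrix genes differ no more often than genes at large. Timp3 was the extreme, at 79.6 CPM on average in NaV1.5_HFD and 468 CPM in vehicle, a ratio of 5.89. It ranged from 57.15 to 98.2 CPM in the diet experiment and from 357 to 502 CPM in the NR experiment. Fmod was at 215 to 337.5 CPM in the NR libraries of batch 2 and at most 143 CPM in any other library. No test was run between the experiments, and apart from Ctrl_HFD replicate 4 they share no batch, so for these groups experiment and batch cannot be told apart.

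Other genes of the pathway, not in the list of 45, gave few calls. Of 24 further TGF-beta pathway genes (receptors, SMADs, latent binding proteins and targets), 0 passed with edgeR in any of the 6 comparisons. In NaV1.5 mice on high-fat diet 4 were higher and 4 lower at an unadjusted p below 0.05 against regular diet (8.38% and 10.6% of all genes). Among them were Inhba (a subunit of activins) at 1.01 (SE 0.28) and Tgfbi (a TGF-beta induced matrix protein) at -0.44 (SE 0.13). For genotype on high-fat diet 4 were higher and 0 lower at that p (4.24% and 3.8% of all genes). For diet in control mice 0 were higher and 5 lower (3.73% and 4.76%), and for NR 0 and 3 (4.3% and 6.8%). Of 23 matrix receptors, 2 passed and rose with high-fat diet in NaV1.5 mice, against 1.13% of all genes called. Itgb6, the integrin chain that activates latent TGF-beta, rose by 0.74 (SE 0.15, edgeR adjusted p = 0.0289). Itgb1, the common beta chain of collagen and fibronectin receptors, rose by 0.33 (SE 0.08, edgeR adjusted p = 0.0479, close to the threshold). In control mice, which give their own comparison, Itgb6 was at 0.93 (SE 0.16, edgeR adjusted p = 0.267).

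Of 35 other matrix proteins tested, 0 passed in any comparison. At an unadjusted p below 0.05, 6 were higher and 0 lower for genotype on regular diet (3.53% and 2.59% of all genes). For genotype on high-fat diet 9 were higher and 1 lower (4.24% and 3.8%). For diet these counts were 0 and 9 in NaV1.5 mice (8.38% and 10.6%) and 0 and 7 in control mice (3.73% and 4.76%). For NR they were 2 and 0 (4.3% and 6.8%). On high-fat against regular diet, 27 of 35 lay below 0 in NaV1.5 mice (median -0.25, against 52.3% of all genes). In control mice 27 did (median -0.23, against 50.9% of all genes). Mfap2 (a microfibril protein) was at -0.62 in NaV1.5 mice (SE 0.15, edgeR adjusted p = 0.0521). Aspn (asporin, a proteoglycan that binds TGF-beta) was at 0.69 (SE 0.17) in NaV1.5 against control mice on regular diet and at 0.75 (SE 0.18) on high-fat diet, with edgeR adjusted p values of 0.403 and 0.138. Basement membrane genes (17 tested) and crosslinking enzymes (7 tested) gave 0 calls, as did matrix proteases and inhibitors (26 tested in the diet experiment and 27 under NR).

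Spp1 was near the limit of detection. It was at 0.0349, 0.067, 0 and 0.0422 CPM in Ctrl_RD, 0.0961, 0.115, 0.447 and 0.0736 CPM in NaV1.5_RD, and 0.252, 0.134, 0.13 and 0.0526 CPM in Ctrl_HFD. In NaV1.5_HFD it was at 0.398, 0.048, 0.124, 0.0507 and 0.216 CPM, in vehicle at 0.172, 0.223, 0, 0.129 and 0.0494 CPM, and in NR from 0.125 to 0.366 CPM with a median of 0.22. No ordering of the groups can be read from counts this low.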

How the data were processed

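Per the file headers, the deposited values are raw counts, the number of read pairs assigned to each gene by featureCounts 2.0.1. The recorded command sets no strand option, so strand was not used, and by the program's defaults pairs lying over more than 1 gene or mapping to several places were left out. FastQC 0.11.7, STAR 2.7.6a and builds GRCm38 and mm10 are named in the submitters' processing notes. Groups and batches come from the labels.

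Counts were tested with edgeR 4.0.16 in R 4.3.3 (quasi-likelihood F-test, filterByExpr, TMM, robust dispersion, 2-sided), adjusted by Benjamini-Hochberg over all genes kept, with a threshold of 0.05. The 4 diet groups formed a fit of 17 libraries (16168 genes) and vehicle and NR a fit of 12 (16482 genes), with group and batch as terms. SE is the absolute log2 difference divided by the square root of F. CPM uses TMM factors over all 29 libraries. The scripts were tested on simulated data.

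The members and lists were chosen with earlier results of these data known. Statistics are given for members past the threshold and the 4 with the smallest p in each comparison, and values per library for the smallest p and for Col1a1, Col3a1, Postn, Fn1, Lox, Spp1, Tgfb2, Acta2 and Timp1. Other genes named beyond this rule, and the members named at an unadjusted p below 0.05, were chosen after their values were seen. Alternatives were DESeq2 1.42.0, its size factors, no scaling, limma-voom (limma 3.58.1), other filters, batch choices, all libraries in 1 fit, a replicate block, GC and length offsets, and each library left out.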

Additional observations from a re-analysis of the deposited data

Results flagged for a closer look

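Of 78 sets of libraries examined (13 genes in 6 groups), 6 held a library whose gap to its nearest neighbour took up an unusually large share of the range of its group; chance alone marks about 1 in 20. Ctrl_RD replicate 3 lay above its group in Tgfb2 (22.2 CPM) and Prelp (84.5 CPM). Mgp was highest and apart in Ctrl_RD replicate 4 (1553 CPM) and in NaV1.5_RD replicate 4 (1990.0 CPM), the library with the lowest collagens of its group. Tgfb2 stood apart in Ctrl_HFD replicate 4 (20.6 CPM), the diet library with the batch 2 label. Spp1 stood apart in NaV1.5_RD replicate 3 (0.447 CPM), a level made of a handful of counts.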

How the results depend on the processing

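The count of matrix genes called was 0 under every alternative run for genotype on regular diet, diet in control mice and the interaction. For genotype on high-fat diet it was 0 except 1 with DESeq2 and 2 with limma-voom. For diet in NaV1.5 mice it was 1 in the report, 0 without scaling, 0 in batch 1 libraries alone and 0 with GC content and length offsets. It was 9 with limma-voom (12.1% of all genes) and from 0 to 7 with 1 library left out (6.92% of all genes where it was 7). For NR it was 2 in the report (0.425% of all genes) and 8 without the batch term, where 26.6% of all genes were called. It was 0 in batch 3 libraries alone, 0 with all 29 libraries in 1 fit and 0 with GC content and length offsets. For NR of batch 2 against vehicle it was 18 (10 higher and 8 lower, batch and NR not told apart). There 60.4% of all genes were called. With 1 library left out the count for NR ran from 0 to 2. Over the alternatives, the calls among all genes ran from 1 to 27 for genotype on regular diet (2 in the report), 2 to 124 on high-fat diet (14), 4 to 1950 for diet in NaV1.5 mice (182), 0 to 75 in control mice (0) and 1 to 9851 for NR (70). The cause of these moves was not tested. The genes past the threshold and the 4 with the smallest p in each comparison kept their direction under every alternative run. Of the 44 tested genes, the log2 difference changed sign under at least 1 alternative in 23 (genotype on regular diet), 7 (genotype on high-fat diet), 15 (diet in NaV1.5 mice), 8 (diet in controls), 28 (interaction) and 30 (NR). Among those named with values these were Col3a1 on regular diet, Col1a1 on high-fat diet, Fn1 for diet in NaV1.5 mice (0.02 without NaV1.5_RD replicate 1), and Col1a1, Col3a1, Postn, Tgfb2 and Acta2 for NR.

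Replicate numbers did not pair the libraries: over 16 same-numbered pairs the correlation of deviations ran from -0.204 to 0.204, and 3 exceeded 0.1. With the replicate block, diet in NaV1.5 mice gave 0 calls (0.165% of all genes). The same numbered libraries without a block, a setting chosen after seeing the data, gave 7 (5.71% of all genes). The block changed no count of matrix genes in the other comparisons of the diet experiment. No paired analysis was possible for NR because batch and block together leave its contrast without an estimate.

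Precision is limited by 4 or 5 libraries a group, by 3 informative Ctrl_HFD libraries and by 2 informative NR libraries. It is also limited by low counts for Spp1, Tnc, Col12a1, Thbs1 and Lox. Exon bases are shared with other genes in 18 of the 45 genes, over 10% of the bases in 5.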
